A study of Caenorhabditis elegans with 2 samples.

Results

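The strongest autosomal binding regions that lay at gene starts were described in a chromatin immunoprecipitation sequencing (ChIP-seq) experiment on NHR-67. The members were chosen by the authors' signal value, the peak caller's enrichment of a region over the control: the 1000 autosomal regions with the highest signal in the list called on both replicates together were taken. Of these, the 435 whose summit lay within 500 bp of an annotated protein-coding transcript start were kept. They were 435 of 24694 autosomal regions and of 30000 regions on all chromosomes, and their nearest starts belonged to 431 genes, 4 of which had 2 members. The other 565 of the 1000 lay away from starts, and 6556 weaker autosomal regions lay at starts.

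The DNA came from whole Caenorhabditis elegans larvae of the L3 stage, males and females pooled, of strain OP373. Its genotype is unc-119(tm4063) III; wgIs373, where the insertion wgIs373 targets nhr-67, and the precipitated protein was an eGFP-tagged NHR-67. Both biological replicates carried this genotype and no second group was included, so regions were compared only with other regions of the same lists. The labels name neither the promoter nor the cells in which the tagged protein was made, and the lists hold no expression, so the tissue behind a region could not be checked.

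NHR-67 belongs to the tailless family of nuclear receptors and is known in C. elegans for its roles in the anchor cell, the uterus and vulva and in several neuron types. Receptors of this family bind DNA in front of or within the genes they regulate, with a zinc-finger domain that reads a short half-site. In C. elegans many annotated starts are trans-splice sites downstream of where transcription begins, neighbouring genes often share 1 promoter region head to head, and some genes are transcribed together as operons.

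The sequence at the summits is shown first, because short words in it had shares several times those in weaker regions at starts. These are windows reaching 50 bp to either side of the summit (ce11, plus strand, from the RefSeq genome of the same assembly, WBcel235) of the 3 strongest members on autosomes II to V and of the strongest such members with each of 3 hexamers. Capitals mark the hexamer CGCGCA or GCGCAC, the hexamer CGCACA and the hexamer CTGCGC, on either strand, and these words can overlap one another.
rpl-3, chrIII:3867518-3867618, signal 90.6: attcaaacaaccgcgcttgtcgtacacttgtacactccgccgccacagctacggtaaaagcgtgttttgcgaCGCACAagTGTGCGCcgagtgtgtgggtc
cdc-48.1, chrII:10563518-10563618, signal 69.8: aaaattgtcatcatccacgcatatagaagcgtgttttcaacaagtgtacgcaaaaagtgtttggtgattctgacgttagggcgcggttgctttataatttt
swsn-3, chrIII:2768786-2768886, signal 55.5: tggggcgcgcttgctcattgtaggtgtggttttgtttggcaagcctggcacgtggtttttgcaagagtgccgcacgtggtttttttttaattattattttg
Y55F3AR.2, chrIV:1094302-1094402, signal 48.8: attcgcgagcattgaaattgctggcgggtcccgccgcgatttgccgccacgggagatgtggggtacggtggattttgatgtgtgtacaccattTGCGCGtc
sec-61.G, chrV:10897357-10897457, signal 39.0: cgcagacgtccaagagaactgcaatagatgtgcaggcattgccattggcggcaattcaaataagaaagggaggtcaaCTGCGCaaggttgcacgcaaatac
The windows upstream of rpl-3, Y55F3AR.2 and sec-61.G held 1 or more of these hexamers, and those of cdc-48.1 and swsn-3 held none. The last 2 did hold another arrangement of letters, GCA followed after 4 bases by CGC, on the minus strand. The next lines show that arrangement in the 12 strongest members on the same autosomes in which CGC was also followed after 2 bases by C. Each line has 30 bp in the direction that reads GCA first, with capitals on the 2 trimers.
swsn-3, chrIII:2768780-2768809, minus strand: cctacaatgaGCAagcgCGCcccactggac
rps-28, chrIV:1659247-1659276, minus strand: gcagtcgaatGCAagagCGCcgcacggttt
Y39B6A.43, chrV:18967869-18967898, minus strand: tgtacacaatGCAagcgCGCtccacggcta
eelo-2, chrIV:17249910-17249939, minus strand: cgcagaaaatGCAagcgCGCtccattgacg
mtss-1, chrIII:8768078-8768107, minus strand: cgcgatttccGCAaacaCGCcgcacagttt
plrg-1, chrV:10808097-10808126, plus strand: gcaaatgtttGCAagacCGCggcacacatt
iff-2, chrII:8561446-8561475, minus strand: caagaccggtGCAtacaCGCtccgtcgacg
Y71H2AM.20, chrIII:2785998-2786027, plus strand: aaataatgcaGCAagtgCGCtccaacgcaa
spcs-2, chrIII:12874868-12874897, plus strand: ctaagcaaatGCAatagCGCcgcgcacgaa
idhg-1, chrIII:4568719-4568748, minus strand: cgtgtttctcGCAattcCGCcgcgcgacat
ubl-1, chrIII:3068075-3068104, plus strand: caattttaatGCAagcgCGCcccaccgcac
ccdc-47, chrIII:3916805-3916834, minus strand: cgcagtgtttGCAaagtCGCcgcacacact
These 12 sites lay upstream of genes for a ribosomal protein (rps-28), a ubiquitin-like protein fused to a ribosomal protein (ubl-1), a translation factor (iff-2), a chromatin remodelling subunit (swsn-3), a splicing factor (plrg-1), a mitochondrial single-stranded DNA binding protein (mtss-1), a signal peptidase subunit (spcs-2) and others. The example sites were chosen after their values were seen.

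Summits of members lay mostly upstream of the start. Of the 435 summits, 311 (71.5%, exact 95% interval 67 to 75.7) were upstream, 123 were downstream and 1 was at the start itself. Among weaker regions at starts 3387 of 6556 (51.7%, 50.4 to 52.9) were upstream. The median position of members was 118 bp upstream of the start (signed median -118, interval -135 to -91), that of weaker regions 13 bp upstream (-13, -23 to -4). The bin from 200 to 100 bp upstream held more members than any other, 100 of 435 (23%), and the 5 downstream bins held 20 to 28 members each. The signal chose the members but not the side of the start. No test over regions was run here: neighbouring regions come from the same libraries, and intervals cover counting error over regions only.

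**Figure D1:**
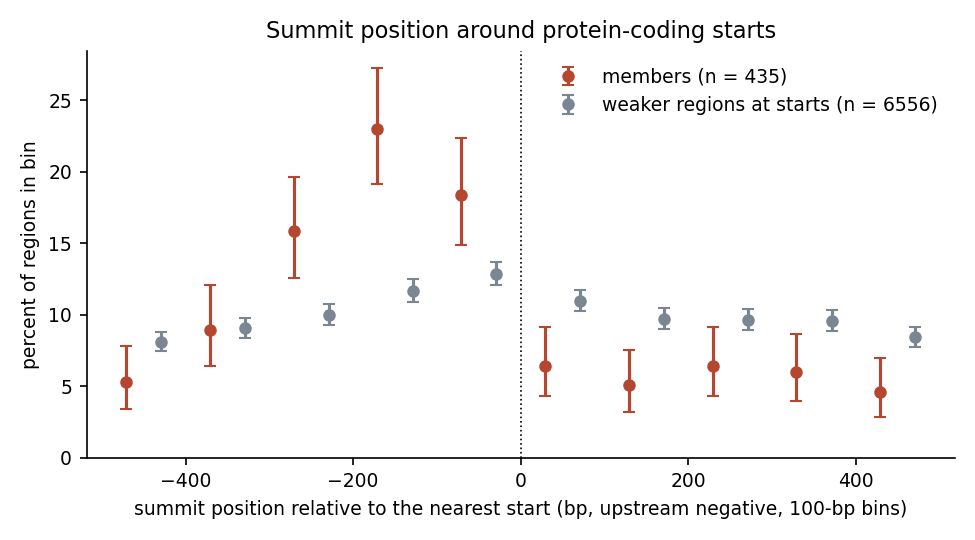
Share of regions per 100-bp bin of summit position relative to the nearest protein-coding start (x axis in bp, upstream negative), for members and for weaker autosomal regions at starts, with exact 95% intervals. Members peak at 23% between 200 and 100 bp upstream, while every bin of weaker regions holds between 8.08% and 12.9%.

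The lean to upstream positions followed the rank within the list. Of the 100 strongest autosomal regions 66 (66.0%, 55.8 to 75.2) lay at starts, of ranks 501 to 1000 187 of 500 (37.4%, 33.1 to 41.8), and of ranks 10001 to 24694 27.1%. Of those at starts, 59 of 66 (89.4%) were upstream in the first band, 107 of 187 (57.2%) in the band from 501 to 1000, and 50.8% in the last. The first 3 bands, down to rank 500, differed most from the rest, and the members of the band from 501 to 1000 had a share upstream below that of the band after it, 61.1% of 470. At the rank limit, the members at rpap-3 (rank 996) and rbm-3.2 (rank 1000) had signals of 15.668 and 15.660, and the first regions at starts beyond it, at npp-8 and Y37F4.7, 15.648 and 15.634. At the distance limit, members at hmg-6 and C39B5.14 lay 491 bp and one at ptp-3 493 bp from the start, and the nearest strong regions outside, at gstk-1 and dhhc-4, lay 513 bp away and one at asd-1 515 bp.

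**Figure D2:**
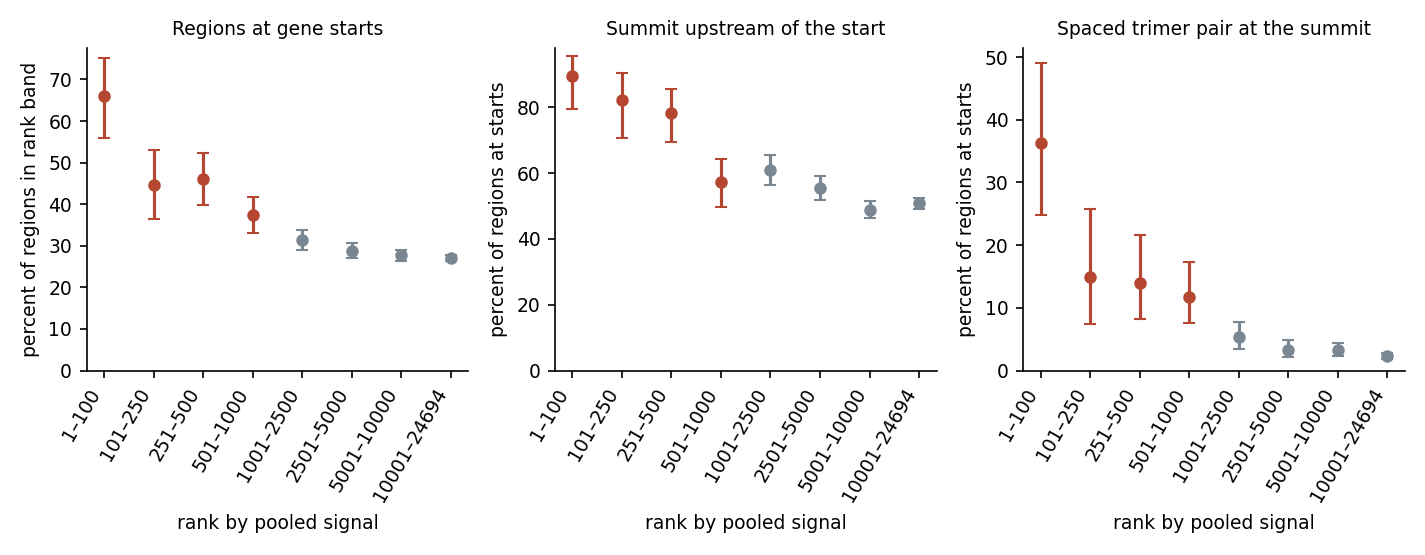
Share of autosomal regions at starts, share of those with the summit upstream, and share of those with the spaced trimer pair (GCA, 4 bases, CGC) within 50 bp of the summit, by rank band of pooled signal, with exact 95% intervals; bands of members are red. The pair stands at 36.4% in the first band and at 2.26% in the last.

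Windows of members were richer in G and C. Their median GC content was 39.6% (38.6 to 40.6), against 35.6% in weaker regions at starts, 36.6% in strong regions away from starts and 33.7% in windows of the same length centred 118 bp upstream of the first start of all 17242 autosomal protein-coding genes. Between windows the members varied widely, with quartiles of 31.7% and 47.5%. The median ratio of CpG observed to CpG given by the base composition was 1.26 (1.21 to 1.29) in members and 1.01 (0.99 to 1.03) in weaker regions at starts. GC content differed with position: the 123 downstream members had a median of 34.7%, close to all autosomal regions (34.7%). Upstream members had a median of 41.6% (39.6 to 44.6), and upstream weaker regions at starts one of 33.7% (33.7 to 34.7).

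Among all hexamers, with reverse complements merged, those with the largest difference in share between members and weaker regions at starts were mostly built of G and C. Words of 6 or 8 letters named for a large difference were picked on these same windows. Their shares are therefore a description, and the intervals leave that choice out. GCGCAC was found in 57 members (13.1%) against 2.30% of weaker regions, 3.72% of strong regions away from starts and 2.30% of all start windows. CGCGCA was found in 50 members (11.5%, 8.65 to 14.9) against 2.21%, 3.89% and 2.36%. The next largest differences were for GCGCGC (10.3% of members against 1.60% of weaker regions) and AGCGCG (10.6% against 2.20%). CGCACA was in 43 members (9.89%, 7.25 to 13.1) against 2.58%. CTGCGC, which was not among the hexamers with the largest differences, was in 22 (5.06%, 3.20 to 7.56) against 1.40%. The palindrome TTGCAA was in 58 members (13.3%) against 5.38%. The strongest differences among 8-letter words were for AAGTGCGC, in 21 members (4.83%) against 0.59% of weaker regions, and AAGCGCGC, in 19 (4.37%) against 0.40%. Under 30% GC, CGCGCA was in 0 of 87 members against 0.64% of weaker regions. From 30% up its share was higher in members in each GC class. CGCACA was in 0 members at 30 to 35% GC against 1.88% of weaker regions, and in 4.41% against 3.98% at 40 to 45%. At 50% GC and above, CGCGCA was in 28.2% of members, 7.42% of weaker regions and 17.7% of strong regions away from starts. CGCACA stood there at 28.2%, 5.88% and 12.9%. In members CGCGCA was as frequent on the strand of the nearest gene (28 of 57 matches) as on the other strand (29), and 7 members held it more than once. By side of the start, CGCGCA was in 49 of 311 upstream members (15.8%, 11.9 to 20.3), against 3.22% of upstream weaker regions. Only 1 of 123 downstream members held it (0.81%, 0.02 to 4.45). CGCACA was in 41 upstream members (13.2%) and 2 downstream members (1.63%).

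A half-site read by nuclear receptors of this family, AAGTCA, showed no such excess in members. It was found within 50 bp of the summit in 11 members (2.53%, 1.27 to 4.48), against 4.27% (3.79 to 4.79) of weaker regions at starts, 4.78% (3.17 to 6.88) of strong regions away from starts and 4.52% of all start windows. The intervals of members and weaker regions overlapped. By GC class AAGTCA was in 1.15% of members against 4.22% of weaker regions under 30% GC, and 2.74% against 5.06% at 30 to 35%. It stood at 4.48% against 4.59% at 35 to 40% and 2.94% against 3.28% at 40 to 45%. At 50% and above it was in 0 of 78 members against 4.09%. Only at 45 to 50% was the share higher in members, 4.84% against 3.66%. No class held more than 3 members with this word. Of the other words counted, TTTCAG, the 3′ splice site consensus, stood at 14.3% in members, 20.9% in weaker regions at starts, 19.5% in strong regions away from starts and 14.6% in all start windows. TATAAA stood at 9.66%, 12.9%, 12.04% and 13.6% in the same order, GAGAGA at 9.43%, 6.74%, 11.2% and 8.77%, and CACGTG, an E-box, at 1.61%, 1.72%, 1.95% and 2.16%. A match is a stretch of letters and not a measured binding site.

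The hexamers pointed to a longer arrangement, which was looked for after their values were seen. Of 22861 pairs of trimers spaced 0 to 10 bp apart, the largest differences in share between members and weaker regions were for GCA and CAC with 9 bp between them and for GCA and CGC with 4 bp between them (GCANNNNCGC), and both can lie in the same site. The second was found in 72 of 435 members (16.6%, 13.2 to 20.4), in 184 of 6556 weaker regions at starts (2.81%, 2.42 to 3.24), in 13 of 565 strong regions away from starts (2.30%, 1.23 to 3.90) and in 416 of 17242 start windows (2.41%). With a C after 2 more bases it was found in 48 members (11%, 8.25 to 14.4), 0.96% of weaker regions, 1.06% of strong regions away from starts and 1.03% of start windows. The pair was picked for its difference between members and weaker regions, so these shares are a description and the intervals leave that choice out. Of the 72 members with the pair, 21 also held GCGCAC, and 36 members held that hexamer without the pair.

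The letters between and after the trimers were uneven as well. Counting from 0 at the G of GCA, over 74 matches in 72 members, position 3 was A in 74.3%, position 6 G in 63.5%, position 12 C in 67.6%, position 13 A in 73.0% and position 16 G in 63.5%. The printed site of Y39B6A.43 has all 5 of these letters. The matches read along the strand of the nearest gene in 31 cases and along the other in 43. Each 20-bp bin within 40 bp of the summit held the pair in 3.68% to 4.37% of members, and bins farther out, to 140 bp, in 0.23% to 1.61%, while in weaker regions every bin stood between 0.40% and 0.78%. The pair was chosen in windows reaching 50 bp from the summit, so a fall beyond that edge follows in part from the choice. Inside these windows 60.8% of the 74 matches in members lay within 25 bp of the summit (median 20.5 bp). In weaker regions 53.9% of 193 matches did (median 24 bp).

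**Figure D3:**
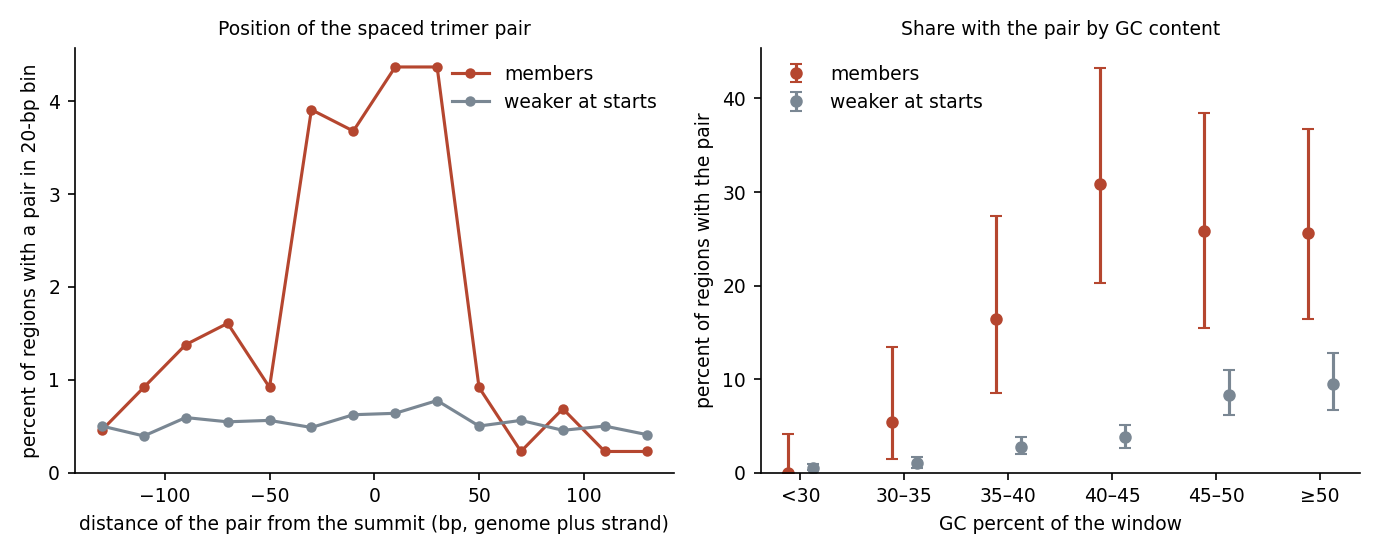
Left, share of members and of weaker regions at starts with the spaced trimer pair in each 20-bp bin of distance from the summit; right, share with the pair within 50 bp by GC content of the window, with exact 95% intervals. Members stand farthest above weaker regions within 40 bp of the summit. They also stand above them in every GC class from 30% up, with overlapping intervals at 30 to 35%.

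GC content moved with the pair, and the difference was also present within GC classes. The pair was chosen on these same members and weaker regions, so a difference in their parts is in part carried over from that choice. The shares by GC class, autosome and side of the start therefore describe the pair and are no separate evidence. In windows of 35 to 40% GC the pair was in 11 of 67 members (16.4%, 8.49 to 27.5) against 2.78% of 1330 weaker regions, at 40 to 45% in 21 of 68 (30.9%, 20.2 to 43.3) against 3.78% of 1005, and at 50% and above in 20 of 78 (25.6%, 16.4 to 36.8) against 9.46% of 391. Under 30% none of 87 members held it (upper limit 4.15%). On each of the 5 autosomes the share in members was between 13.1% (IV) and 18.6% (II), and in weaker regions between 2.17% (III) and 3.67% (II). It was 67 of 311 (21.5%, 17.1 to 26.5) in upstream members and 5 of 123 (4.07%, 1.33 to 9.23) in downstream members, against 3.96% of upstream weaker regions. The replicates differed in this: in strong regions at starts chosen from replicate 1 alone the pair was in 50 of 348 (14.4%, 10.9 to 18.5), and from replicate 2 alone in 26 of 382 (6.81%, 4.49 to 9.81), against 2.51% and 3.18% of their weaker regions.

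Most genes with the pair in front of them had no member. Of all autosomal protein-coding genes 431 of 17242 (2.5%) had a member at a start. Of the 1640 genes with the pair in the 500 bp before the first start 102 did (6.22%, 5.10 to 7.5), and of the 683 with the pair and C 58 did (8.49%, 6.51 to 10.8). The pair was chosen for its share in the members' own windows. The higher shares here follow in part from that choice and are no separate evidence.

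Of the 431 genes with a member 77 were in any of the gene lists, and of the 15 strongest members 5 had a list gene as the nearest. Ribosomal protein genes had the highest share of the lists. The background for these counts is the 2.5% of genes with a member. The gene lists were assembled with earlier results of these data known, ribosomal proteins included, so a high share describes the list and is no independent evidence. Of 80 cytosolic ribosomal protein genes 14 (17.5%) had a member: rpl-3, rpl-6, rpl-7A, rpl-12, rpl-15, rpl-23, rpl-24.2, rpl-35, rps-1, rps-7, rps-12, rps-17, rps-28 and ubl-1. A further 6, among them rpl-20 and rps-15, were the second gene within 500 bp of a member. The strongest member of all lay 286 bp upstream of rpl-3, which encodes a large-subunit protein. It had a pooled signal of 90.6, 65.1 in replicate 1 and 30.4 in replicate 2, and was the first autosomal region in both replicate lists. The member at rpl-15, also of the large subunit, had 49 pooled, 40.5 in replicate 1 (rank 4) and 6.54 in replicate 2 (rank 943). The member at rps-12, of the small subunit, had 45.3 pooled, 38.6 in replicate 1 (rank 10) and 8.52 in replicate 2 (rank 231). These 3 ranked within the first 10 in replicate 1 and from first to 943rd in replicate 2, and the members at ubl-1, rpl-7A, rpl-23 and rps-7 had no region in replicate 2. At the other end, the member at rps-17 ranked 9153 in replicate 1 (7.26) and 91 in replicate 2 (10.2).

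Translation factors and tRNA synthetases had a member at 6 of 71 genes (8.45%), and at 2 when regions were chosen without replicate 1. The strongest were at ears-2, a glutamyl-tRNA synthetase gene (pooled signal 37.0, 25.9 in replicate 1 and 9.16 in replicate 2), eef-1G, an elongation factor subunit (36.5, 28.9 and 6.36), and iff-2, a translation factor (32.8, 27.9 and 4.79). Chaperones and CDC-48 had a member at 7 of 66 (10.6%), and at 4 without replicate 2. The second strongest member of all lay 161 bp upstream of cdc-48.1, an AAA ATPase that extracts ubiquitylated proteins (69.8 pooled, 55.8 in replicate 1, rank 2, and 13.6 in replicate 2, rank 20). Members at hsp-1, an Hsp70 gene (31.1, 26.1 and 7.72), and hsp-90 (30.7, 18.5 and 5.48) lay 449 and 337 bp upstream of the start. All 6 of these members had a region in both replicate lists, with ranks of 45 or better in replicate 1 except at hsp-90 (rank 222).

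Genes of RNA synthesis and processing also had members. Of 65 splicing and RNA processing genes 7 (10.8%) had a member, but 2 when regions were chosen without replicate 1. Of 74 genes for RNA polymerase subunits and general factors 7 (9.46%) had one, where the list name speaks of polymerase II but rpac-19 and rpc-11 encode subunits of other RNA polymerases. The member at rpac-19 had 32.2 pooled, 22 in replicate 1 (rank 90) and 11.9 in replicate 2 (rank 42). That at elof-1, a transcription elongation factor gene, had 31.0, 19.9 (rank 158) and 12.6 (rank 35) and lay 6 bp upstream of the start with lin-7 opposite. That at mdt-26, a Mediator subunit gene, had 26.7 and 30.4 in replicate 1 (rank 23), lay 120 bp downstream of the start and had no region in replicate 2. The member at mdt-28, another Mediator gene, had no region in either replicate list, the only one of 435.

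Respiratory chain and ATP synthase genes had a member at 8 of 67 (11.9%), led by cox-5A, a cytochrome c oxidase subunit (29.3 pooled, 15.3 in replicate 1, 6.27 in replicate 2), cox-5B (25.04, 18.6 and 2.93) and atp-2, the beta subunit of ATP synthase (24.9, 15.2 and 6.63). Vacuolar ATPase genes had one at 2 of 18 (11.1%), membrane traffic genes at 8 of 96 (8.33%), proteasome and ubiquitin genes at 4 of 87 (4.6%), chromatin regulators at 3 of 74 (4.05%), actin and tubulin at 1 of 28 (3.57%) and glycolysis at 0 of 16. Without replicate 2 the respiratory chain count was 5, the vacuolar ATPase and actin and tubulin counts 0 and the glycolysis count 1, and without replicate 1 actin and tubulin had 2 and histones 0. In membrane traffic, sec-61.G, a subunit of the protein translocation channel, had a member near the top of both replicate lists (39.0 pooled, 23.8 and rank 58 in replicate 1, 15.8 and rank 7 in replicate 2). In the chromatin list swsn-3, a subunit of the SWI/SNF remodelling complex, had the fourth strongest member (55.5 pooled), with 48 and rank 3 in replicate 1 and 3.15 and rank 8038 in replicate 2. Histones had one at 2 of 77 (2.60%), near the background, at his-37 and his-68, whose multiple copies share sequence.

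Lists of genes tied to particular cells stood on either side of the 2.5% background, with few members each. Collagen and cuticle genes of the hypodermis had 1 of 156 (0.64%, at bli-4, a protease gene acting in the cuticle), germline genes 1 of 78 (1.28%, at mex-5), neuron genes 1 of 26 (3.85%, at unc-25, which encodes the enzyme that makes GABA), and body wall muscle, intestine and pharynx genes 0 of 20, 0 of 21 and 0 of 24. Lists this short would hold at most about 1 member at the background share, so their 0 is not a low count. Nuclear hormone receptor genes had 2 of 247 (0.81%, nhr-114 and nhr-19) and homeobox genes 1 of 70 (1.43%, ceh-2). Of 32 anchor cell, uterine and vulval genes, 2 (6.25%) had a member, and of 11 larval timing genes 1 (9.09%). These counts depended on the replicate: with regions chosen without replicate 1 they were 7 for nuclear hormone receptors, 4 for collagens, 4 for anchor cell, uterine and vulval genes, 3 for larval timing and 2 for homeobox genes. Without replicate 2 they were 2, 1, 1, 1 and 0, with 2 for neuron genes and 0 for germline genes, so the low share of nuclear receptor, collagen and homeobox genes did not hold in replicate 2 alone. The members were at fos-1 (16.1 pooled, 17.7 in replicate 1 and no region in replicate 2), a transcription factor gene of anchor cell invasion, at unc-40 (17.2, 9.22 and none), a netrin receptor gene, and at myrf-1 (28.1, 12.3 and 15.3), a transcription factor gene of larval development. Among the pooled autosomal regions the fos-1 and unc-40 members had ranks 884 and 636, in the weaker part of the members, and neither had a region in replicate 2, and that at myrf-1 ranked 10 in replicate 2 and 1552 in replicate 1. In whole animals, binding in few cells and weak binding in many cannot be told apart, so a missing region says nothing of a single cell type.

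Among the strongest members in no list, the member at spe-48, a gene of sperm function, had 60.3 pooled, 37.8 in replicate 1 (rank 11) and 17.1 in replicate 2 (rank 5), and lay 20 bp upstream of the start with Y51F10.11 opposite. The member between Y17G9B.5 and rpl-20 had 50.8, 31.2 (rank 22) and 11.9 (rank 43), and that between Y55F3AR.2 and cct-8, a chaperonin subunit gene, 48.8, 38.9 (rank 8) and 9.19 (rank 160). Both had the ribosomal or chaperonin gene as the second and not the nearest start. Members at Y22D7AL.10 (45, 32.8 and 11), F10E9.5 (43.7, 28.8 and 10.7) and cmtr-1, an mRNA cap methyltransferase gene (40.1, 26.8 and 11.9), were within the first 80 of both replicate lists, as were those at Y39B6A.43 (36.9, 23.3 and 12.3) and eelo-2 (36.9, 27.8 and 10.5). Others were carried by replicate 1: nmad-1 (46.1, with 38.8 and rank 9 against 4.99 and rank 2576), tasp-1, a threonine aspartase gene (40.5, with 35.2 and rank 12 against 4.53 and rank 3484), nspg-9 (39.6, with 33.6 and rank 13 against 3.64 and rank 6029), and haf-6, an ABC transporter gene (40.6, with 39.7 and rank 7 and no region in replicate 2). The weakest members, at zhit-1, H38K22.9, mtrf-1L, rpap-3 and rbm-3.2, had 15.7 each and, except rbm-3.2, no region in replicate 2.

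Replicates agreed for part of the members. The pooled list holds the reads of both, so these counts describe and do not test. A region of replicate 1 overlapped 420 members (96.6%, 94.4 to 98.1), against 66.8% of all autosomal pooled regions, and a region of replicate 2 overlapped 278 (63.9%, 59.2 to 68.4), against 27.0%. Of strong regions away from starts, 95.8% (93.7 to 97.3) had a region in replicate 1 and 48.5% (44.3 to 52.7) in replicate 2. The share for replicate 1 was thus like that of the other strong regions. Both lists had a region at 264 members (60.7%), replicate 1 only at 156 and replicate 2 only at 14. The list of replicate 2 is shorter, 19385 regions against 30000, and its regions are mostly 336 bp wide against 256 bp, which makes an overlap easier. Among the 1000 strongest autosomal regions of both replicates stood 55 members (12.6%, 9.67 to 16.1), against 0.437% of all autosomal pooled regions and 6.37% (4.50 to 8.71) of strong regions away from starts. In replicate 1 the members' signal ran from 4.18 to 65.1 (median 14.9, that of the whole list 6.35), and in replicate 2 from 2.07 to 30.4 (median 5.71, list 3.18). The scale of the signal differs between lists, so the pooled and replicate signals printed for a member are not comparable with each other. A smaller signal in replicate 2 does not by itself show weaker binding there. By rank within a list, the median was 635.5 over the 420 members with a region in replicate 1, of 24703 autosomal regions, and 1623 over the 278 with one in replicate 2, of 15785. The second leaves out the 157 members with no replicate 2 region and is not comparable with the first.

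**Figure D4:**
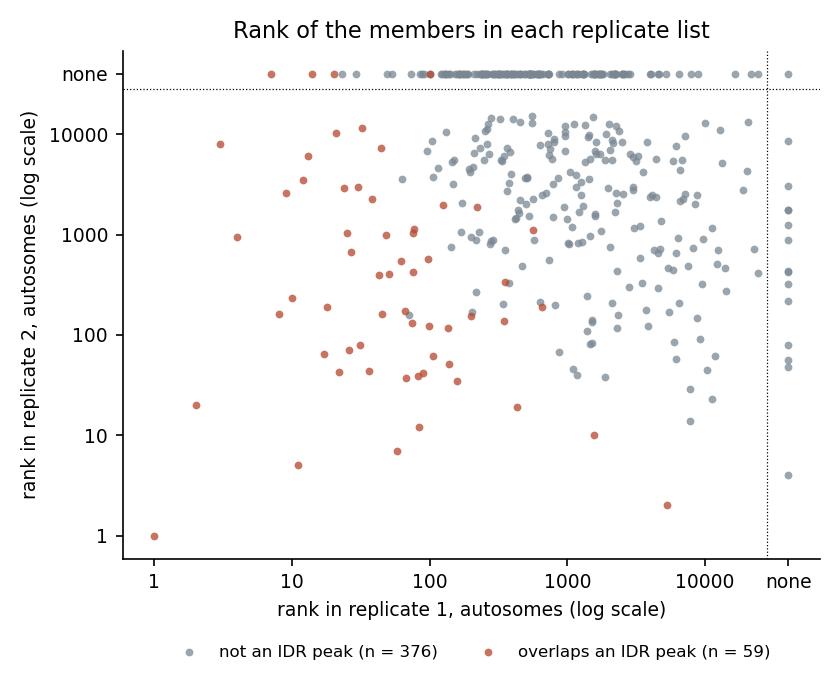
Rank of each of the 435 members among the autosomal regions of replicate 1 (x axis) and replicate 2 (y axis), both on log scales, with members without a region in a list at "none"; red points overlap a peak that passed the authors' reproducibility threshold. The row of points at none holds 157 members without a replicate 2 region.

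Of the peaks that passed the authors' reproducibility threshold (irreproducible discovery rate, IDR), 59 members (13.6%, 10.5 to 17.1) overlapped one, against 0.344% of all autosomal pooled regions and 24 of 565 (4.25%, 2.74 to 6.26) strong regions away from starts. Of the 59, 55 had a region in replicate 2, and those without one, such as the member at haf-6, passed all the same. Members that passed were more upstream (53 of 59, 89.8%, 79.2 to 96.2, against 258 of 376, 68.6%, 63.7 to 73.3), held CGCGCA more often (22%, 12.3 to 34.7, against 9.84%, 7.02 to 13.3) and the spaced pair more often (21 of 59, 35.6%, 23.6 to 49.1, against 51 of 376, 13.6%, 10.3 to 17.4). Their median GC content was 46.5% against 37.6%. The 157 members without a replicate 2 region lay upstream in 60.5% (52.4 to 68.2), and held CGCGCA in 7.01% and the pair in 12.1% (7.45 to 18.2). The 264 in both lists lay upstream in 78.0% (72.5 to 82.9), and held CGCGCA in 14.4% and the pair in 19.7% (15.1 to 25). Passing depends on the signal that chose the members, so the values follow the rank bands above and are not a separate line of evidence.

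Many members lay between genes that start head to head. The nearest start and a start on the other strand faced away from each other around 79 summits (18.2%, 14.7 to 22.1), against 4.65% of weaker regions at starts. Taking only upstream summits, where such an arrangement is possible, the shares were 79 of 311 (25.4%, 20.7 to 30.6) and 9.01% of 3387. A second gene started within 500 bp of 93 members (21.4%, 17.6 to 25.5), which leaves the gene of these members ambiguous. Genes with a member were followed within 500 bp by a gene on the same strand in 121 of 431 cases (28.1%, 23.9 to 32.6), against 19.1% of all autosomal protein-coding genes and 19.9% of genes with only weaker regions. They were preceded by one in 23% (19.1 to 27.2) against 19.1%. A tRNA, snRNA or snoRNA gene started within 500 bp of 30 members (6.90%, 4.70 to 9.70), against 1.43% of weaker regions at starts and 6.37% of strong regions away from starts. In this the members were like the other strong regions, and snoRNA genes (15 members) were more numerous than tRNA genes (10) or snRNA genes (6).

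Along the chromosomes, members were spread over all 5 autosomes. Chromosome I held 102, V 91, III 88, IV 84 and II 70, which is 35.4 members per 1000 protein-coding genes on I, 33.3 on III, 25.6 on IV, 20.3 on II and 18.2 on V. The central part of each chromosome, which leaves out 25% of its length at either end, held 256 of 435 members (58.9%, 54.1 to 63.5), 51.3% of all autosomal regions, 55.7% of protein-coding genes and 61.4% of strong regions away from starts (57.3 to 65.4). More than 50% of the window was soft-masked, the mark of repeats in the reference, in 23.9% (19.97 to 28.2) of members, 29.2% of weaker regions at starts and 25.7% of strong regions away from starts.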

How the data were processed

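ChIP-seq of eGFP-tagged NHR-67 in whole L3 larvae was deposited as region lists for each of 2 biological replicates, for both together (pooled) and for peaks past the reproducibility threshold. Per the file records, lists were called against 1 control shared by both replicates, not analysed here. The authors' signal value (enrichment as their caller gave it) ranked regions within a list; the deposited −log10 q-value was 3.14 for every member and ranked nothing. The sources used here name no aligner and no caller version. Depth is unknown, as no read counts are held. Fragments were 150 to 350 bp, per the labels.

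Members and gene lists were chosen with earlier results of these data known. Starts came from Ensembl 115 (WBcel235, the assembly of ce11). Named genes were those of the 15 strongest members, the 10 with the best worse rank in both replicates, up to 25 list members by signal, the 5 weakest, those at the limits and those printed as sequence; other names were chosen after their values were seen. Words were searched on both strands within 50 bp of the summit, and an overlap of 1 bp counted. Shares carry exact Clopper-Pearson 95% intervals and medians order-statistic intervals. Python 3.11.15, pandas 2.3.3 and scipy 1.17.1 were used, checked on simulated data. Alternatives varied the distance, the number of regions, the list, the window, the overlap, merging and starts. The trimer pairs were added after seeing the data.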

Additional observations from a re-analysis of the deposited data

How the results depend on the processing

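Taking starts within 250 bp left 284 members, 76.8% upstream, a median distance of 133 bp, 23.6% with divergent starts and 7 ribosomal protein genes; within 1000 bp the upstream share was 66.3%, the distance 266 bp and the divergent share 13.2%. The 500 strongest regions gave 248 members, with 23.8% at an optimal (IDR) peak, 71.4% with a replicate 2 region, 82.3% upstream, 42.6% GC, 16.1% with CGCGCA and 23.4% divergent. The 2000 strongest gave 744, with 7.93% at an optimal peak, 92.9% and 56.2% with a region in replicates 1 and 2, 37.6% GC and 12.2% with GCANNNNCGC. Overlap over at least 50% of the member left 58.9% with a replicate 2 region. Counting only the 1000 strongest regions of a replicate left 55.4% for replicate 1 and 27.4% for replicate 2. With windows of 25 bp either side GC was 41.2%, CGCGCA 6.21% and the pair 8.74%; with 100 bp they were 37.3%, 16.3% and 20.7%.

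With members chosen in 1 replicate alone, without replicate 2 or without replicate 1, the optimal share was 16.4% and 10.2%, the upstream share 69.8% and 66.8%, GC 39.6% and 36.6%, CGCGCA 9.77% and 8.38%, the pair 14.4% and 6.81% and divergent starts 18.7% and 12.8%. Regions of replicate 2 were at 44.8% of replicate 1's members, and regions of replicate 1 at 49.5% of replicate 2's. The lower values without replicate 1 were not tested for a cause. No paired analysis was possible because there is 1 group. Of 108 alternative values for these results, 70 stayed within their interval or within 1.5 times the count, and no test threshold applied. Depth is unknown, other factors' binding was not analysed here, and with 2 replicates and no second condition these values describe lists.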
